A study of Ogataea parapolymorpha DL-1 with 4 samples.

Results

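A group of 5 thiol redox genes of the methylotrophic yeast Ogataea parapolymorpha DL-1 is described here, out of 5448 rows of the deposited table. They are the rows HPODL_02878 and HPODL_03023, both named PRX1 and described as mitochondrial peroxiredoxin, HPODL_00292 (GRX8, glutaredoxin-8), HPODL_02727 (GRX5, mitochondrial monothiol glutaredoxin) and HPODL_03801 (trxB, thioredoxin reductase). They were chosen by row name, with the values of all 4 libraries already known, so their levels and differences are a description and carry no test. The libraries came from 2 strains in 2 media. The strains were a met4 mutant (leu2 met4::LEU2, whose MET4 locus carries the marker LEU2) and a wild type (leu2 [LEU2], a leu2 strain that carries the same marker). Both were DL-1 cells started at an OD600 of 0.1 in YPD, a rich medium, and taken at an OD600 of 0.3. They were then kept for 2 h either in B medium, labelled as limited in sulfur, or in B medium with 0.5 mM cysteine. The sources used here do not give the number of independent mutant clones.

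Peroxiredoxins reduce hydrogen peroxide and organic peroxides with a reactive cysteine, and the oxidized enzyme is restored by thioredoxin or by glutathione and glutaredoxin. Thioredoxin is kept reduced by thioredoxin reductase with electrons from NADPH, and glutaredoxins draw on glutathione in the same way. Monothiol glutaredoxins such as Grx5 of budding yeast serve mainly in the assembly and transfer of iron-sulfur clusters. Every one of these proteins works through cysteine, and glutathione is itself made from cysteine.

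Each group held 1 library, so no value below has a replicate behind it and no test was possible. Levels are FPKM (fragment counts divided by transcript length and by how many fragments of the library were mapped), which adjust for gene length and keep no record of depth, so the counting error of each value is unknown. Differences are differences of log2(FPKM + 1), and 2-fold on this scale was used as a mark of size. The row zip1 (HPODL_03459), named as the fission yeast factor related to Met4, was listed at 0 in both mutant libraries and had 485 and 202 FPKM in wild-type cells on B medium and with cysteine. HPODL_05198, the row next to it, was likewise at 0 in the mutant, so strain differences cannot be assigned to zip1 alone. The wild-type libraries hold more of their FPKM in short genes. Genes under 400 bases took 24.5% of the FPKM sum in mutant cells on B medium and 19.4% in mutant cells with cysteine, against 56.2% and 48.2% in the wild type in the same media.

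The PRX1 rows and GRX8 had their highest level in the wild type on B medium. Elsewhere HPODL_02878 still ranked between 230 and 334 of 5342 compared genes. Both PRX1 rows and GRX8 were 17.3-fold to 64.8-fold higher without than with cysteine in the wild type as ratios of FPKM, and 20.8-fold to 30.1-fold lower in the mutant than in the wild type when both were in B medium. With TPM scaling (each library to the same sum) the log2 differences of the strain comparison were -3.34 for HPODL_02878, -3.17 for HPODL_03023 and -3.71 for GRX8. trxB ran the other way between the media, 26.3-fold lower without than with cysteine in the mutant and 29.3-fold lower in the wild type. The largest difference of GRX5, 2.38-fold, was the smallest among the largest differences of the 5 genes. Without replicates it cannot be said which of these levels differ beyond the spread between cultures. In a bulk culture a lower level in every cell and a smaller share of cells with the transcript cannot be told apart.

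**Figure D1:**
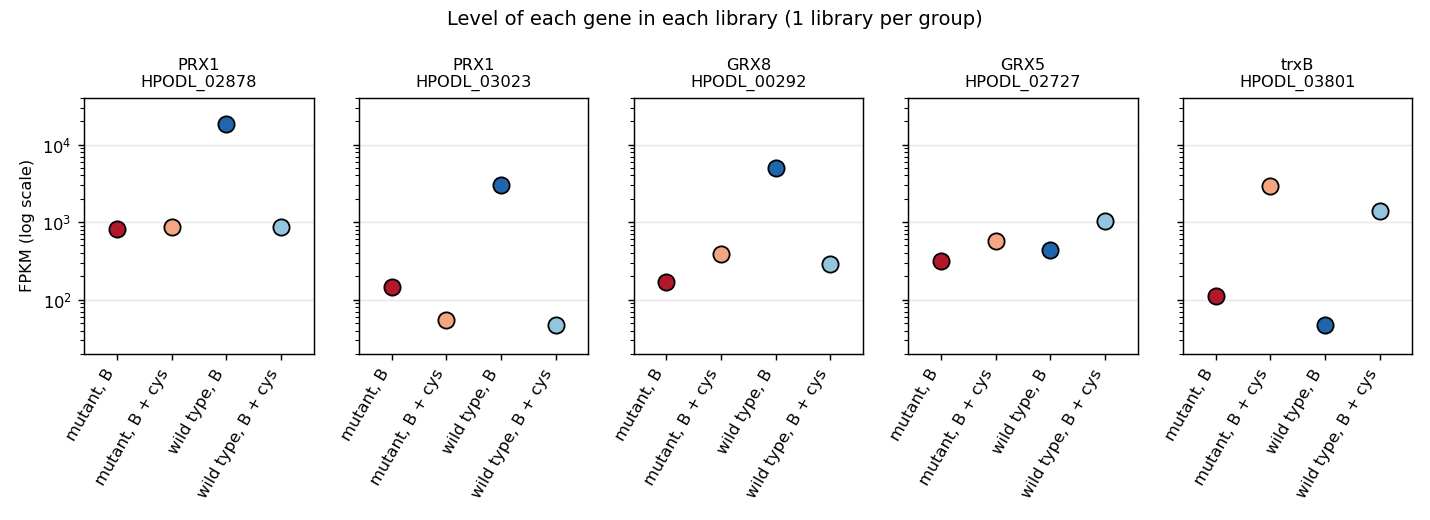
FPKM on a log axis for each of the 5 genes in each library, 1 point per library, with the met4 mutant (red shades) left of the wild type (blue shades) and B medium left of B medium with cysteine. The wild type on B medium stands above the other 3 libraries for both PRX1 rows and GRX8, and trxB is low in both libraries from B medium.

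HPODL_02878 was the most abundant of the 5 genes in wild-type cells on B medium. It lies on chromosome VII from 878907 to 879587 on the plus strand (681 bases, assembly Hansenula_2). Prx1 of budding yeast removes peroxides in the mitochondrial matrix. The row had 804 FPKM in mutant cells on B medium and 872 FPKM in mutant cells with cysteine, against 18571 FPKM in wild-type cells on B medium and 857 FPKM in wild-type cells with cysteine. The other 3 libraries thus lay close together, far below the wild type on B medium. There it ranked 27 of 5342 compared genes, while its rank was 295 in mutant cells on B medium, 230 in mutant cells with cysteine and 334 in wild-type cells with cysteine. The log2 difference between B medium and cysteine was -0.12 in the mutant and 4.44 in the wild type. That between mutant and wild type was -4.53 in B medium and 0.02 with cysteine.

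HPODL_03023, the other PRX1 row, was lower than HPODL_02878 in every library and had the largest medium difference of the 5 genes in the wild type. It lies on chromosome VII from 1121638 to 1122369 on the minus strand (732 bases). It had 145 FPKM in mutant cells on B medium and 55.4 FPKM in mutant cells with cysteine, against 3015 FPKM in wild-type cells on B medium and 46.5 FPKM in wild-type cells with cysteine. The wild type on B medium was again the high library, and the mutant on B medium lay above both libraries with cysteine. Its log2 difference between the media was 1.37 in the mutant and 5.99 in the wild type, where 30 compared genes had a larger one. The difference between mutant and wild type was -4.37 in B medium and 0.25 with cysteine.

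The PRX1 rows kept nearly the same proportion to each other in both strains, and that proportion differed between the media. A ratio taken within a library does not depend on how libraries are scaled. HPODL_02878 over HPODL_03023 was 5.55 in the mutant and 6.16 in wild-type cells on B medium. With cysteine it was 15.7 in the mutant and 18.4 in the wild type. The rows share a name and could share reads, and no sequence was at hand to say how alike they are, so the split between them is uncertain.

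As deposited, GRX8 had the pattern of HPODL_02878 with a further low point. It lies on chromosome III from 232737 to 233051 on the plus strand (315 bases, the shortest of the 5). Grx8 of budding yeast is a small cytosolic glutaredoxin with low activity. It had 167 FPKM in mutant cells on B medium and 386 FPKM in mutant cells with cysteine, against 5037 FPKM in wild-type cells on B medium and 291 FPKM in wild-type cells with cysteine. Among the deposited values the mutant on B medium was its lowest library and the wild type on B medium its highest. Its log2 difference between the media was -1.20 in the mutant and 4.11 in the wild type, opposite in sign and past 2-fold in both. The difference between mutant and wild type was -4.90 in B medium and 0.41 with cysteine. Genes of its length were low in the mutant as a group. The running median over 100 genes on each side in length was -2.09 in B medium and -1.46 with cysteine. With this trend removed GRX8 stood at -2.82 and 1.86. Its medium difference in the wild type was then 3.72, which put the wild type with cysteine below the mutant on B medium. With TPM scaling the strain difference in B medium was -3.71 and that medium difference 3.63, so these libraries lay close together.

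GRX5 had the narrowest range of the 5 genes over the 4 libraries. It is on chromosome VII from 629233 to 629661 on the minus strand (429 bases). It had 318 FPKM in mutant cells on B medium and 574 FPKM in mutant cells with cysteine, against 435 FPKM in wild-type cells on B medium and 1035 FPKM in wild-type cells with cysteine. It was lower in B medium than with cysteine in both strains, and the mutant was below the wild type in both media. The log2 differences between the media were -0.85 in the mutant and -1.25 in the wild type. Those between mutant and wild type were -0.45 in B medium and -0.85 with cysteine. The strain difference in B medium took the other sign with TPM scaling and when the length trend was removed, up to 0.74. The one with cysteine shrank to -0.05 with TPM scaling and to -0.35 with the length trend removed.

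trxB separated the media in both strains. It lies on chromosome V from 53573 to 54538 on the plus strand (966 bases), and its name is the bacterial name of thioredoxin reductase. It had 112 FPKM in mutant cells on B medium and 2950.2 FPKM in mutant cells with cysteine, against 47.4 FPKM in wild-type cells on B medium and 1389 FPKM in wild-type cells with cysteine. Both libraries with cysteine lay above both from B medium, and in each medium the mutant lay above the wild type. The log2 difference between the media was -4.70 in the mutant, where 2 compared genes had a lower one, and -4.84 in the wild type, where 15 did. The mutant response less the wild-type response was 0.14. The difference between mutant and wild type was 1.23 in B medium and 1.09 with cysteine, and with TPM scaling 2.36 in B medium and 1.88 with cysteine.

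All 5 genes were past 2-fold between the media in the wild type, 3 higher and 2 lower in B medium, where 23.6% of compared genes were higher and 13.0% lower. In the mutant 1 gene (HPODL_03023) was higher and 2 (GRX8, trxB) were lower in B medium, beside 13.3% and 12.1% of compared genes. Between mutant and wild type on B medium 1 gene (trxB) was higher and 3 were lower, beside 10.5% and 24.9%. With cysteine 1 gene (trxB) was higher and 0 were lower, beside 6.85% and 7.41%. For the response of the mutant less that of the wild type, 0 were higher and 3 (both PRX1 rows and GRX8) were lower, beside 11.2% and 22.2%. The differences of these 3 were -4.55 for HPODL_02878, -4.62 for HPODL_03023 and -5.31 for GRX8. These counts describe genes chosen with the values known, and nothing about the family is read from them. TPM scaling moved these background shares. It gave 14.1% higher and 21.1% lower between the media in the wild type, 44.3% higher and 6.29% lower between the strains in B medium, 27.7% and 2.21% with cysteine, and 18.6% and 12.6% for the difference of responses. The library in which the PRX1 rows and GRX8 were highest, from wild-type cells without cysteine, enters both the medium comparison of that strain and the strain comparison in that medium, so these are not separate findings.

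**Figure D2:**
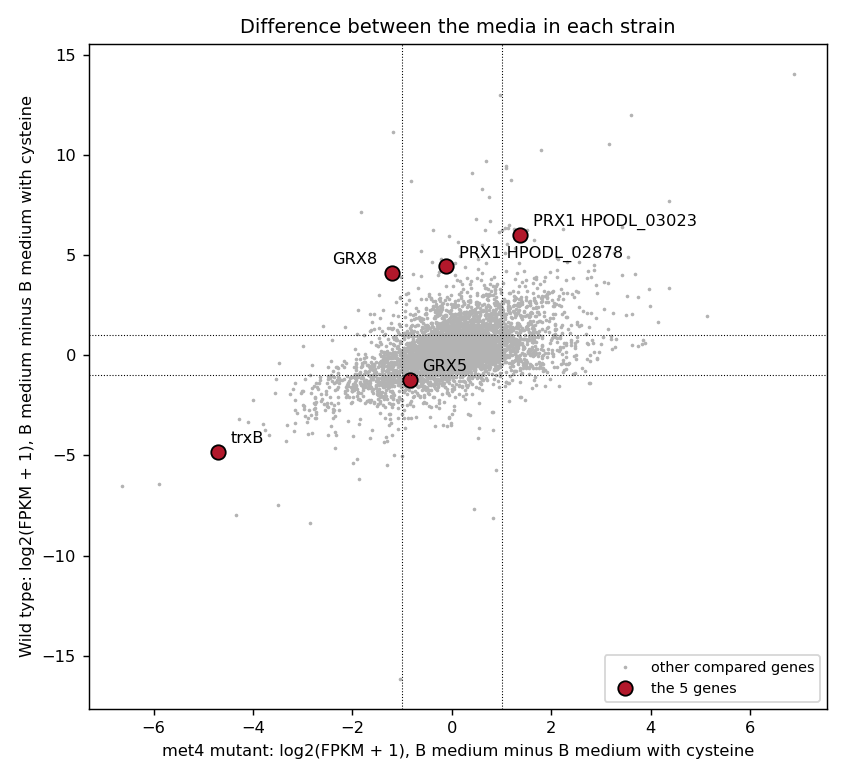
Difference of log2(FPKM + 1) between B medium and B medium with cysteine, met4 mutant on the horizontal axis and wild type on the vertical axis, for all 5342 compared genes (grey) and the 5 genes (red); dotted lines mark 2-fold. trxB lies near the diagonal at -4.70 and -4.84, while both PRX1 rows and GRX8 lie high on the vertical axis and between -1.20 and 1.37 on the horizontal one.

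The genes with the most similar patterns differed between the 5. Likeness was the Euclidean distance between log2(FPKM + 1) values, each gene centred on its own mean over the 4 libraries. Only genes with a described product and a mean of at least 5 FPKM were searched. Nearest to HPODL_03023 were MET3 (sulfate adenylyltransferase, which activates sulfate, distance 0.35), SUL1 (sulfate permease, 0.60) and dmoA (dimethyl-sulfide monooxygenase, 0.78). Nearest to HPODL_02878 were CIB22 (a complex I subunit, 0.38), sam1 (S-adenosylmethionine synthase, 0.66) and GRX8 (0.80). GRX8 had HPODL_02878 (0.80), sam1 (0.87) and the transporter SEO1 (0.91) as its nearest. MET3 had 37.4 FPKM in mutant cells on B medium and 16.8 FPKM with cysteine, against 738 and 14.5 FPKM in the wild type, so its high library was the same as that of the PRX1 rows.

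Among the genes searched, trxB had no near neighbour of that closeness. Its nearest were SCO1 (copper delivery to cytochrome oxidase, distance 1.33), YEA4 (a sugar nucleotide transporter, 1.38) and COX15 (heme synthesis for cytochrome oxidase, 1.43). SCO1 had 119.8 FPKM in mutant cells on B medium and 1557 FPKM with cysteine, against 93.3 and 1486 FPKM in the wild type. GRX5 was nearest to kduD (a sugar acid dehydrogenase, 0.13), JJJ3 (diphthamide synthesis, 0.15) and CPR1 (a prolyl isomerase, 0.18). Among the 5 genes, the smallest distance was that of HPODL_02878 and GRX8 and the largest that of HPODL_03023 and trxB (9.35). The distances rest on 4 libraries and are a description. They used the deposited values with no length trend removed, and CIB22 (369 bases) and GRX8 (315 bases) are short. The running median of strain differences in B medium was -2.09 at the length of GRX8 and -0.58 at that of HPODL_02878. With cysteine it was -1.46 and -0.17.

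The neighbours on the chromosome had smaller differences than both PRX1 rows, GRX8 and trxB in the wild type. ALD4 (mitochondrial aldehyde dehydrogenase), 663 bases past GRX8 on the same strand, had 445 FPKM in mutant cells on B medium and 344 FPKM with cysteine, against 744 and 109 FPKM in the wild type. On the other side of GRX8, cdc11 had log2 differences between the media of -0.06 in the mutant and 1.44 in the wild type. ILV5 (branched-chain amino acid synthesis), 316 bases before HPODL_02878 on the same strand, differed between the media by 1.54 in the mutant and 1.16 in the wild type. SEF1 (a transcriptional regulator), next to HPODL_03023, differed by 1.53 in the mutant and 1.30 in the wild type. Next to trxB, ADE13 (purine synthesis) differed by -1.49 in the mutant and 0.49 in the wild type. The rows on either side of GRX5 stayed within 2-fold between the media in both strains.

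The other peroxide-reducing genes were set beside the PRX1 rows from a list matched by gene name and product. Of 7 further thiol peroxidases and sulfiredoxin, 0 were at least 2-fold higher and 3 lower in B medium in the mutant (median -0.75), and 1 was higher and 3 lower in the wild type (median -0.41). Beside these stand 13.3% higher and 12.1% lower of all compared genes in the mutant, and 23.6% and 13.0% in the wild type. The medians of all compared genes were 0.04 in the mutant and 0.19 in the wild type. The 3 lower ones were HYR1, SRX1 and TSA1 in both strains, opposite in sign to the PRX1 rows in the wild type. TSA1 in the mutant was at the 2-fold mark, at -1.02 with a range from -1.10 to -0.92 over the alternatives. HYR1 in the mutant was near it too, at -1.08 with a range from -1.17 to -0.97. HYR1, whose budding yeast counterpart relays peroxide to the regulator Yap1, had 1106 FPKM in mutant cells on B medium and 2347 FPKM with cysteine, against 706 and 9012 FPKM in the wild type. SRX1, sulfiredoxin, which repairs overoxidized peroxiredoxins, had 420.4 and 995 FPKM in the mutant, against 353 and 3185 FPKM in the wild type in the same media. SRX1 is short (366 bases), and its strain difference ranged with the processing from 0.25 to 1.84 in B medium and from -1.68 to -0.88 with cysteine. TSA1, the main cytosolic peroxiredoxin of budding yeast, had 2062 and 4171 FPKM in the mutant, against 1840.3 and 5057 FPKM in the wild type.

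The balance between peroxiredoxin transcripts, taken as FPKM, thus differed between the libraries. HPODL_02878 stood at 0.390 of the TSA1 level in mutant cells on B medium and at 0.209 with cysteine, against 10.1 times in wild-type cells on B medium and 0.170 with cysteine. DOT5, a nuclear peroxiredoxin in budding yeast, was the 1 higher gene, with 29.1 FPKM in mutant cells on B medium and 28.8 FPKM with cysteine, against 232 and 59.7 FPKM in the wild type. Its high library was that of the PRX1 rows. PMP20_LIPKO (putative peroxisomal peroxiredoxin) and the putative peroxiredoxin rows PMPB and pmp20 stayed within 2-fold as deposited in all 4 comparisons of libraries.

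**Figure D3:**
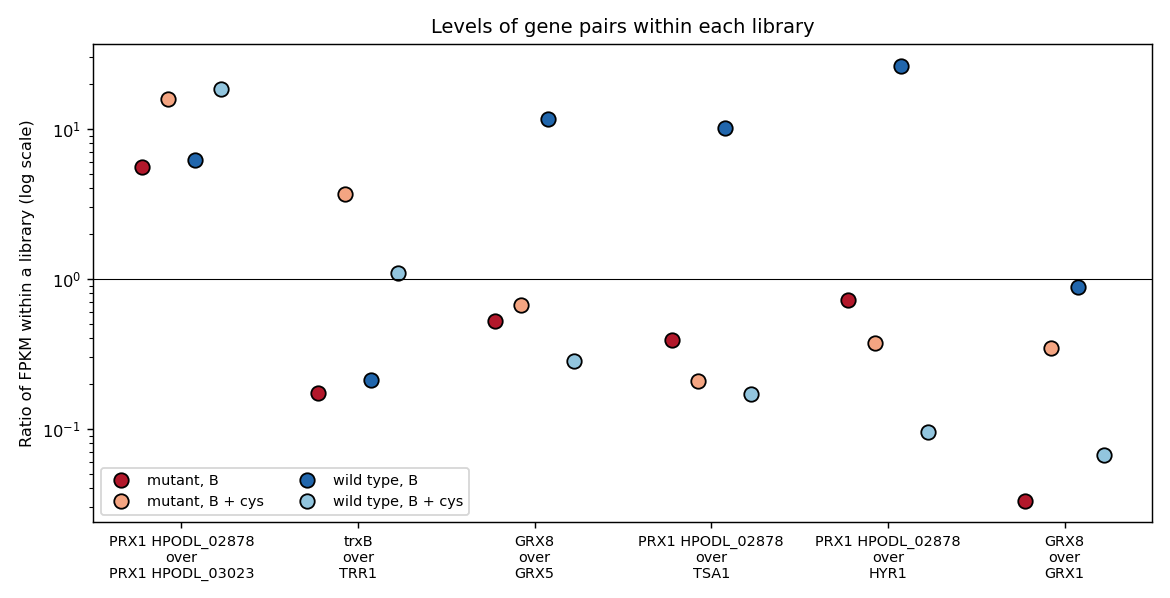
Ratio of the FPKM of a gene to that of another gene within the same library, on a log axis, with the 4 libraries in colour for each of 6 pairs. The ratio of the PRX1 rows differs by medium and hardly by strain, trxB over TRR1 is below 1 in both libraries from B medium, and the other 4 ratios are highest in wild-type cells on B medium.

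In the thioredoxin branch the other reductase row did not match trxB. TRR1 (HPODL_04814), the cytosolic thioredoxin reductase of budding yeast, had 648 FPKM in mutant cells on B medium and 807 FPKM with cysteine, against 224 and 1278 FPKM in the wild type. Its log2 difference between the media was -0.32 in the mutant and -2.51 in the wild type. trxB over TRR1 was 0.173 in mutant cells on B medium and 0.212 in wild-type cells on B medium, and 3.65 in mutant cells with cysteine and 1.09 in wild-type cells with cysteine. TRX1, a thioredoxin, had 4874 and 879 FPKM in mutant cells on B medium and with cysteine (2.47), against 1993 and 1422 FPKM in the wild type (0.49). TRX1 is short (309 bases), and its strain difference ranged with the processing from 1.29 to 3.40 in B medium and from -0.69 to 0.87 with cysteine. Of the 4 genes of this branch besides trxB, 1 was higher and 0 lower in B medium in the mutant, and 0 were higher and 1 lower in the wild type. Of all compared genes 13.3% were higher and 12.1% lower in the mutant, and 23.6% higher and 13.0% lower in the wild type.

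Among the glutaredoxins as deposited, GRX8 was the 1 gene with its peak in wild-type cells and its lowest value in mutant cells, both on B medium. That lowest value did not hold with the length trend removed. GRX4, a monothiol glutaredoxin of iron signalling in budding yeast, was higher in B medium in both strains, with 811 and 69.2 FPKM in the mutant and 795 and 101 FPKM in the wild type. The log2 differences of GRX4 were 3.53 in the mutant and 2.97 in the wild type, opposite in sign to those of GRX5. GRX1, a dithiol glutaredoxin, had 5030.3 and 1117 FPKM in the mutant, against 5754 and 4325 FPKM in the wild type in the same media. GRX1 is short (318 bases), and its strain differences moved with the processing. They ranged from -0.19 to 1.89 in B medium and from -1.95 to -0.52 with cysteine. GRX8 stood at 0.0332 of the GRX1 level in mutant cells on B medium, against 0.875 in wild-type cells on B medium. With cysteine the order of the strains was reversed, at 0.346 in the mutant and 0.0673 in the wild type. GRX6 stayed within 2-fold as deposited in every comparison.

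Across the whole redox list without the 5 genes, 30 genes were compared, also including glutathione synthesis and transfer, catalase, cytochrome c peroxidase, methionine sulfoxide reductases and regulators. In the mutant 7 were higher and 5 lower in B medium (median 0.01), and 7 were higher and 3 lower with the length trend removed. In the wild type 6 were higher and 7 lower (median 0.19). Between mutant and wild type on B medium 4 were higher and 6 lower (median 0.02), a balance that differed with the scaling. It was 18 higher and 2 lower with TPM scaling, 11 and 2 with the length trend removed, and 7 and 5 with median-of-ratios scaling. With cysteine 0 were higher and 5 lower (median -0.40), against 3 higher and 2 lower with TPM scaling and 1 higher and 3 lower with median-of-ratios scaling. For the mutant response less the wild-type response, 10 were higher and 4 lower (median 0.22). The medians of all compared genes were -0.27 for the strains in B medium, -0.10 with cysteine and -0.20 for the difference of responses. As deposited, the shares of all compared genes past 2-fold, higher and lower, were 13.3% and 12.1% between the media in the mutant. In the wild type they were 23.6% and 13.0%. Between the strains they were 10.5% and 24.9% in B medium and 6.85% and 7.41% with cysteine. For the difference of responses they were 11.2% and 22.2%. These shares moved with the scaling as well. Between the strains in B medium they were 44.3% and 6.29% with TPM scaling and 14.8% and 18.8% with median-of-ratios scaling. With the length trend removed they were 14.99% and 15.99% there, and 12.4% and 12.9% between the media in the mutant. Between the strains with cysteine they were 27.7% and 2.21% with TPM scaling and 8.03% and 6.08% with median-of-ratios scaling.

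Within that list gst2, a glutathione S-transferase, had the same high library as GRX8. It had 951 and 1247 FPKM in mutant cells on B medium and with cysteine, against 9124 and 1803 FPKM in the wild type. The mitochondrial cytochrome c peroxidase ccp-1 was higher in B medium in both strains, with 736 and 76.9 FPKM in the mutant and 433 and 100.4 FPKM in the wild type. So was the peroxisomal catalase PXP9, with log2 differences of 2.76 in the mutant and 1.41 in the wild type. YAP1, the regulator of peroxide defence in yeasts, had 981 and 813 FPKM in the mutant, against 280.2 and 720 FPKM in the wild type. MXR1, which repairs oxidized methionine, was lower in B medium in both strains, at -2.11 in the mutant and -1.05 in the wild type. Glutathione synthetase GSH2 and glutathione reductase GLR1 stood between 0.32 and 1.09 in the mutant and between 0.32 and 0.82 in the wild type.

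**Figure D4:**
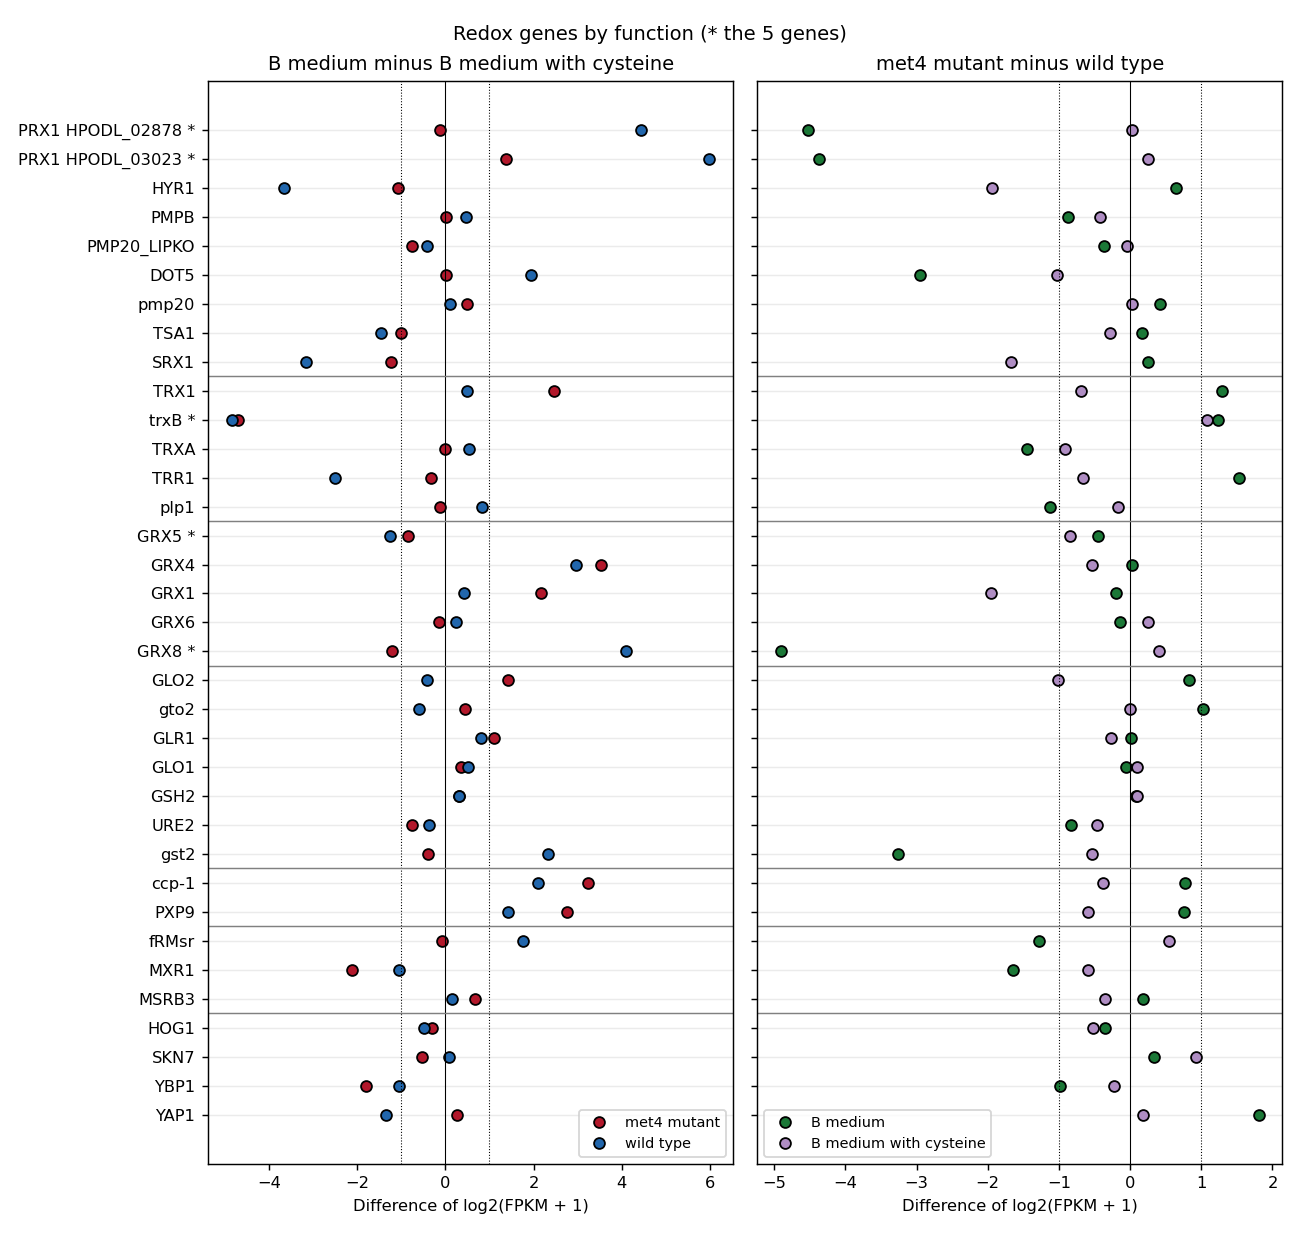
Difference of log2(FPKM + 1) for the 35 redox genes, grouped by function between grey lines, with the 5 genes starred; left, B medium minus B medium with cysteine in the met4 mutant (red) and the wild type (blue); right, met4 mutant minus wild type in B medium (green) and with cysteine (purple). Both PRX1 rows and GRX8 lie farthest right in the wild type on the left and farthest left in B medium on the right, and trxB is the lowest in both strains on the left.

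The authors' deposited table marks the genes that differ between the strains, at a threshold of 0.05, for each of the 4 ways to pair a mutant library with a wild-type one. That mark was carried by 0 of the 5 genes and 0 of the 30 other redox genes in the authors' deposited table. It was rare there, with 13 of 5448 rows marked between the strains in B medium, 57 with cysteine, and 11 and 13 where the media were crossed.

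**Figure D5:**
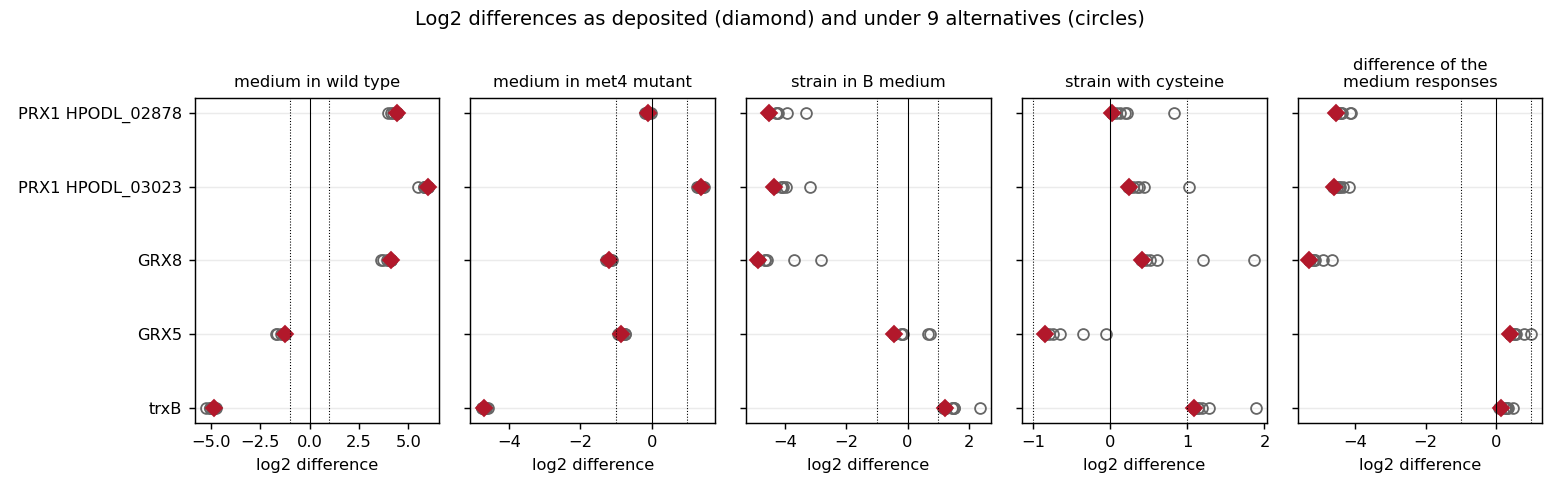
Log2 differences of the 5 genes in each of the 5 comparisons, with the deposited values as diamonds and 9 alternative treatments of the values as circles; dotted lines mark 2-fold. For each gene the medium differences spread less than the strain differences, which spread most for GRX8, where the one in B medium ranges between -4.91 and -2.82.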

How the data were processed

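RNA was extracted with hot phenol from 4 cultures and sequenced after an Illumina library preparation, per the labels' protocols. The authors deposited 1 FPKM value per gene and library. Cuffdiff, Cufflinks 2.1.1 and TopHat are named, without roles, in the submitters' processing notes. Genome build, annotation and strand setting: not given in the sources used here. Per the file headers, the yes or no marks use a threshold of 0.05, with no statement on adjustment. FPKM values keep no read counts, so depth is unknown.

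Groups follow the sample titles. Of the rows, 5372 match a locus tag of the RefSeq table of assembly Hansenula_2, with identical coordinates in all 5372, the 5 genes among them. The values were not rescaled. Genes whose 4 values averaged 1 FPKM or more (5342, all 5 genes included) were compared as log2(FPKM + 1), in Python 3.11.15 with pandas 2.3.3, and the code was tested on simulated data. No test was made, since a group held 1 library. The genes and lists were chosen with earlier results of these data known. Named genes are the 5, the 4 largest differences of the redox list per comparison (mean of at least 5 FPKM), the 3 nearest patterns per gene, the chromosomal neighbours, zip1 and HPODL_05198. List members beyond the largest 4, and those in the closing section, were named by function after their values were seen, as were the gene pairs for ratios. Alternatives were a pseudocount of 0.1 or 5 FPKM, all rows kept, a minimum mean of 10 FPKM, 4 other scalings and removal of the length trend. No sequence is shown.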

Additional observations from a re-analysis of the deposited data

Results flagged for a closer look

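GRX8 (HPODL_00292) differed between the media in opposite directions in the strains, past 2-fold in both. It was lower in B medium in the mutant (167 FPKM, against 386 FPKM with cysteine) and higher in B medium in the wild type (5037 FPKM, against 291 FPKM with cysteine). The mutant response less the wild-type response was -5.31 on the log2 scale. With 1 library per group the difference was not tested.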

How the results depend on the processing

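Across the 9 alternatives, the 25 log2 differences of the 5 genes (5 genes in 5 comparisons) kept their side of 2-fold in 221 of 225 values, and no difference past 2-fold changed sign. The 4 others passed 2-fold: between mutant and wild type with cysteine, HPODL_03023 at 1.02 and GRX8 at 1.20 with TPM scaling and GRX8 at 1.86 with the length trend removed, and for the difference of responses GRX5 at 1.01 with the length trend removed. The number of the 5 genes past 2-fold between the strains with cysteine was 1 as deposited, 3 with TPM scaling and 2 with the length trend removed. For the 30 other redox genes it was 10 between the strains in B medium as deposited and 20 with TPM scaling. With cysteine it was 5 as deposited, 3 with a pseudocount of 5 FPKM, 3 with scaling by the summed FPKM of genes from 600 bases up and 1 with the length trend removed. Of all compared genes 10.5% were higher and 24.9% lower between the strains in B medium as deposited, and 44.3% and 6.29% with TPM scaling. With cysteine these shares were 6.85% and 7.41% as deposited and 27.7% and 2.21% with TPM scaling. They were 8.35% and 3.59% with the length trend removed, and 5.09% and 6.40% with a pseudocount of 5 FPKM. With scaling by genes from 600 bases up they were 7.38% and 6.70%. TPM scaling moved the median of all genes by 1.14 between the strains in B medium and by 0.76 with cysteine. The cause of the uneven short-gene share was not tested. No paired analysis was possible because each group holds 1 library. No library could be left out for the same reason. Depth is unknown, so no limit from counting can be given.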

Other observations

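Grx5 of budding yeast serves in iron-sulfur cluster assembly, and a list for that pathway was matched by gene name and product. It includes the mitochondrial carrier MTM1 and the GrpE homolog MGE1, and 18 genes on it were compared. In the mutant 3 were at least 2-fold higher and 5 lower in B medium than with cysteine (median 0.04), and in the wild type 2 were higher and 9 lower (median -0.62), beside medians of all genes of 0.04 and 0.19. Of all compared genes 13.3% were higher and 12.1% lower in the mutant, and 23.6% higher and 13.0% lower in the wild type. ERV1 (sulfhydryl oxidase) had 64.5 FPKM in the mutant in B medium and 649 FPKM with cysteine, against 74.3 and 841 FPKM in the wild type. YAH1 (ferredoxin) had 208 and 1063 FPKM in the mutant, against 151 and 1243 FPKM in the wild type. ISA1 ran the other way, with 423 and 115 FPKM in the mutant, against 452 and 193 FPKM in the wild type. ATM1, the mitochondrial exporter, had 27.7 and 29.9 FPKM in the mutant, against 86.1 and 10.5 FPKM in the wild type, so its high library was the wild type in B medium, as for both PRX1 rows and GRX8. These genes were named after their values were seen.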
